A study of Mus musculus with 8 samples.

Results

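The response of the mouse liver to partial hepatectomy was measured over both genotypes of the series together, by setting the 4 arrays from livers taken at 24 h after the operation against the 4 arrays from livers taken at 0 h. All 8 arrays of the series enter this comparison, with genotype as a covariate and no interaction term, and it was fitted to all 45037 non-control probe sets of the 45101 on the Affymetrix array. The mice were C57BL/6 males of 7 to 10 weeks, and the 4 groups of 2 arrays were wild type at 0 h, wild type at 24 h, Tob1 null at 0 h and Tob1 null at 24 h. Animals at 0 h were unoperated adults. Those at 24 h had lost the median and left lateral liver lobes under ketamine and xylazine anaesthesia. Each array carried liver RNA pooled from 3 animals that were in no other pool, so the errors below describe pools rather than animals. The spread over the arrays of a time also holds differences between the genotypes. The errors of the fit hold any difference between the responses of the genotypes. There was no sham-operated group, so effects of anaesthesia and surgery and effects of the loss of liver mass cannot be told apart. In bulk liver RNA, fewer cells of a type and less RNA per cell cannot be told apart either.

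After a partial hepatectomy the remaining lobes regrow by division of mature, normally quiescent hepatocytes rather than from stem cells. Cytokines of the interleukin-6 and tumour necrosis factor families prime the cells, growth factors such as HGF and the ligands of the EGF receptor carry them past the restriction point through cyclin D1, and the E2F factors then switch on the genes of DNA replication. In mice, hepatocyte DNA synthesis follows on the day or days after the operation, while the smaller organ keeps up metabolism, plasma protein secretion and bile formation. Tob1 is a protein of the BTG/TOB family, whose members slow proliferation and bring the CCR4-NOT deadenylase to messenger RNAs. The study's title names it as a repressor of this regrowth.

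Values are log2 signals after quantile normalisation, differences are 24 h minus 0 h on that log2 scale with the standard error (SE) of the limma fit, and means carry the SD over the 4 arrays of a time (n = 4). A probe set or gene was called, and is said to have risen or fallen, where limma's two-sided p, adjusted by Benjamini-Hochberg across all probe sets, was under 0.05. A gene was represented by its brightest probe set. Replicate arrays of a group correlated at 0.951 to 0.959 over all probe sets, and pairs of arrays from different times at 0.928 to 0.947. The first principal component held 29.2% of the variance and separated the 4 arrays at 24 h from the 4 at 0 h, and the second, with 14% of it, separated the genotypes. Hepatocyte identity was clear at both times: albumin (Alb) read 13.52, 13.51, 13.53 and 13.56 at 0 h and 13.51, 13.48, 13.56 and 13.58 at 24 h, and none of the 8 hepatocyte markers measured was called by limma (median difference 0.00, or 0.16 with the deposited scaling and 0.26 with median centring; 1 with an unadjusted p under 0.05). The ratio of 3' to 5' signal, which is higher where RNA or cRNA is shorter, was lower at 24 h. For the actin control probe sets the log2 ratio was 1.38 ± 0.23 (SD, n = 4) at 0 h and 1.02 ± 0.17 at 24 h (exact permutation test, two-sided p = 0.0857), and for Gapdh 0.417 ± 0.206 and 0.081 ± 0.091 (exact permutation p = 0.0571, where 70 splits allow no less than 0.0286). The splits took no account of genotype. Within each genotype, both arrays at 24 h lay below both arrays at 0 h for actin and for Gapdh. With the mean of both ratios as a further covariate no probe set was called by limma, 4885 had an unadjusted p under 0.05, and the SE of the 4304 probe sets called without it was larger by a median factor of 2.55. Of those 4304, 4294 (99.8%) kept their sign, at a median size 1.05 times as large.

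Genes that rose after hepatectomy included acute phase, replication licensing, lipid droplet, ribosome biogenesis and proteasome genes, and genes that fell included those of drug, steroid, bile acid and amino acid metabolism. Of 45037 probe sets, 4304 were called (9.56%), 2254 higher (5.0%) and 2050 lower (4.55%) at 24 h. Among 18193 genes with a probe set of their own symbol, 2081 were called (11.4%), of which 1000 rose (5.5%) and 1081 fell (5.94%). At least 2-fold changes were found in 425 rising and 443 falling genes, and at least 4-fold changes in 95 and 79. The called genes differed by a median of 0.91 in size, with a median SE of 0.15, and the smallest called difference was 0.43. The arrays of the 2 times did not overlap in 4709 genes (25.9%), among them 2001 of the 2081 called. Both time means lay above the limit of 3.60, the 40th percentile of all normalised values, in 1865 of the called genes, 1 of them in 144 and neither in 72, where a fold is imprecise. The share of probe sets called rose with signal, from 2.70% of those with a mean at or below the limit to 23.8% of those with a mean between 8 and 10. Of genes with a time mean above the limit, 14.8% were called. The counts of gene lists below are to be read beside these shares, since members of a list may be brighter than most genes.

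No probe set was called by limma for a difference between the responses of the genotypes (3051 had an unadjusted p under 0.05, smallest adjusted p = 0.399). Each of the 2081 called genes had the same sign of response in wild type and in Tob1 null arrays. The fit behind these calls had no interaction term, so genes with opposite responses could hardly be called. The shared signs of called genes therefore do not compare the genotypes. The number of calls depended on every array. Leaving out each of the 8 arrays in turn left, for wild type, 1552 and 1413 probe sets called when the array dropped was of 0 h and 1792 and 2253 when it was of 24 h. For Tob1 null arrays the counts were 1278 and 999 at 0 h and 2766 and 1892 at 24 h. None of the 4304 changed sign in these 8 fits, but 4132 of them had times that did not overlap. For those, leaving out 1 array could not reverse the sign, so the kept signs are no check of the calls. In the full fit and in all 8, 406 genes were called (185 higher, 221 lower). With median centring in place of quantile normalisation 3474 probe sets were called, of which 63.4% were higher against 52.4% with quantile normalisation. In the values below, the wild type arrays come first and the Tob1 null arrays second at each time, and counts from the fits that leave out 1 array follow that order. For a gene list such a count gives the members called in that fit, whether or not they were called with all arrays. The genes at the edge of the call were Gstm6 (adjusted p = 0.0499) and Grb10 (adjusted p = 0.0499) just inside it and Vps72 (adjusted p = 0.0501) and Tgif2 (adjusted p = 0.0501) just outside.

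**Figure D1:**
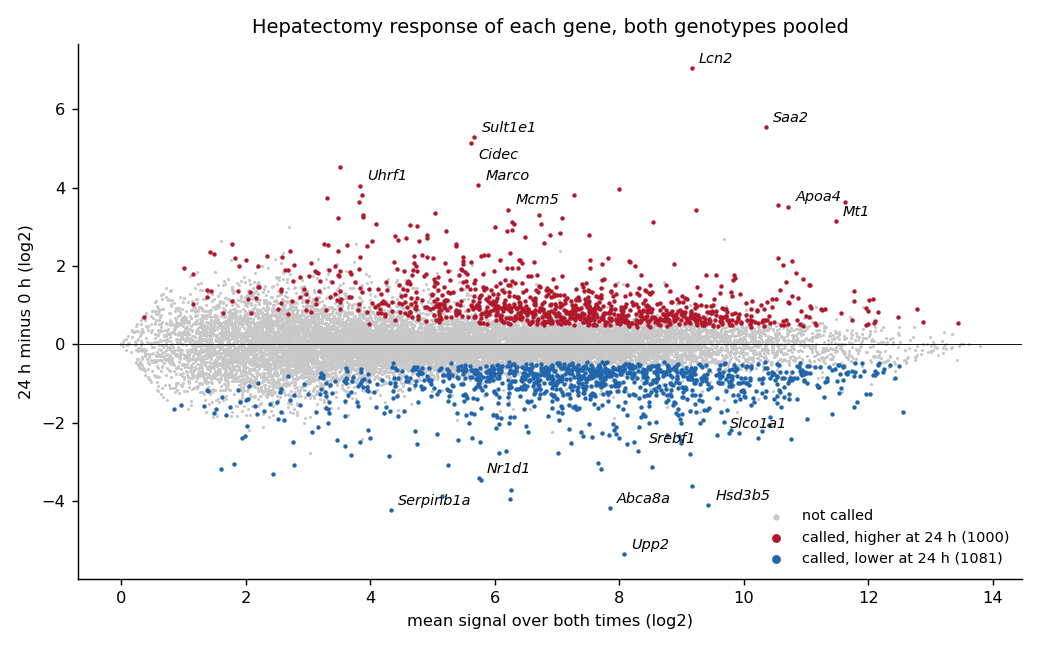
Each point is 1 of 18193 genes; the x axis is the mean log2 signal over both times and the y axis the log2 difference, 24 h minus 0 h, over both genotypes. The 1000 genes called higher (red) and 1081 called lower (blue) form an even fan on both sides of 0, with Lcn2 highest and Upp2 lowest among the genes labelled.

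Acute phase genes gave the 2 largest rises of the comparison. Of 32 acute phase genes measured, 14 rose and 2 fell, with a median difference of 0.48 against -0.03 over all genes. Lcn2, which encodes the siderophore-binding protein lipocalin 2, read 4.98, 5.05, 6.62 and 5.92 at 0 h and 12.86, 12.33, 12.67 and 12.88 at 24 h. The times did not overlap, and the rise of 7.04 ± 0.29 (132-fold, adjusted p = 0.00164) was the largest of all genes. Serum amyloid A, an apolipoprotein of inflammation, was represented by Saa2, at 8.29, 7.58, 6.91 and 7.55 at 0 h and 13.13, 12.92, 13.27 and 13.18 at 24 h (5.54 ± 0.28, adjusted p = 0.00224), and by Saa1, at 10.28, 9.79, 9.25 and 9.93 at 0 h and 13.45, 13.35, 13.53 and 13.43 at 24 h (3.63 ± 0.22, adjusted p = 0.00296). Every array at 24 h lay above every array at 0 h in both, although sequences as alike as theirs may share probes. The constitutive family member Saa4 fell by 1.21 (adjusted p = 0.0399), from 11.19 ± 0.18 to 9.98 ± 0.50.

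The orosomucoids, plasma glycoproteins that bind drugs and lipids, rose as well. Orm2 read 7.23, 7.54, 7.81 and 7.53 at 0 h and 10.84, 11.12, 11.10 and 10.71 at 24 h (3.42 ± 0.17, adjusted p = 0.00224), Orm3 rose by 2.83 and Orm1 by 0.90. Serum amyloid P, encoded by Apcs, was among the least variable of these genes, with 9.52, 9.63, 9.59 and 9.76 at 0 h and 11.67, 11.55, 11.78 and 11.61 at 24 h (2.03 ± 0.12, adjusted p = 0.00253). Both metallothioneins, which bind zinc and copper, rose, but the first Tob1 null array at 0 h stood apart from the others at that time: Mt1 read 9.52, 9.54, 11.46 and 9.10 at 0 h and 13.48, 12.46, 12.84 and 13.40 at 24 h (3.14 ± 0.53, adjusted p = 0.0187) and Mt2 8.41, 8.04, 10.70 and 7.93 at 0 h and 12.99, 11.72, 11.79 and 12.85 at 24 h (3.57 ± 0.67, adjusted p = 0.0246). Mt1 was called in 3 and Mt2 in 2 of the 8 fits that leave out 1 array, among them in each case the fit without that array. Serpina3n, a protease inhibitor, rose by 2.13, and Cebpd, a transcription factor of the acute phase, by 1.27. The fibrinogen chain Fgb rose by 0.54, while Fga (0.26, adjusted p = 0.171) and Fgg (0.30, adjusted p = 0.126) were not called. Nor were Hamp, the iron hormone hepcidin (0.20), Crp (-0.20) or Saa3 (-0.20). A2m, a protease inhibitor with low signal in mouse liver, fell by 2.35 with both time means at or below the limit. The number of acute phase genes called was 10, 10, 12 and 7 without each array at 0 h and 10, 12, 14 and 10 without each at 24 h, and 7 genes were called in all 8 fits.

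Promoter sequence was looked at for the acute phase genes because 14 of them rose. In the 250 bases before the start, taken from RefSeq (GRCm38.p6), the palindrome TTGCGCAA, a C/EBP site, was found in 34 of 14452 promoters of measured genes (0.235%), in 5 of 781 of called rises and in 1 of 866 of called falls. Among 11 rising acute phase genes with a promoter in the table it was found only in Orm2. TTCCNGGAA (STAT) was in none of the 11 and in 1.18% of all, and GGGACTTTC or GGGAATTTC (NF-kB) in none and in 0.685%. Both strands were searched, a match describes letters only, and no match says nothing about the factors. The stretch of Orm2 lies on the plus strand of chromosome 4 at chr4:63362294-63362371 and is printed with the match in capitals:
Orm2: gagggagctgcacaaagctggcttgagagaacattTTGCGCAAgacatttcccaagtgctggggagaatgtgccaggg

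Of 44 DNA replication genes measured, 12 rose and 1 fell, the median difference was 0.94, and 38 of the 44 differences were positive. The MCM2-7 complex is the replicative helicase that is loaded on origins in G1. Mcm5 read 4.73, 5.07, 4.18 and 4.04 at 0 h and 6.66, 7.97, 9.08 and 8.03 at 24 h (3.43 ± 0.52, 10.8-fold, adjusted p = 0.0149), and its times did not overlap. Mcm2 read 4.80, 5.19, 4.40 and 4.92 at 0 h and 7.05, 7.80, 8.67 and 7.44 at 24 h (2.91 ± 0.37, adjusted p = 0.0105), Mcm4 rose by 2.99, Mcm6 by 3.07 and Mcm7 by 1.20, while Mcm3 stood at 1.26 without a call (adjusted p = 0.0507). Of the other probe sets of Mcm5, 1 rose by 3.83 and 1 that read 3.64 and 3.54, near the limit, was not called (-0.10, adjusted p = 0.928). The first wild type array at 24 h was the lowest of its time for Mcm2, Mcm4, Mcm5, Mcm6 and Mcm7, and the first Tob1 null array the highest.

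Of the factors that load the helicase, Cdt1 rose by 2.33 and the origin recognition subunit Orc6 by 1.26, whereas Cdc6 reached 3.00 without a call (adjusted p = 0.118). At the fork, the single-strand binding subunit Rpa2 rose by 1.80, the clamp loader subunit Rfc3 by 1.28 and the primase subunit Prim1 by 0.81. The large ribonucleotide reductase subunit Rrm1, which supplies deoxynucleotides, rose by 1.57, while its partner Rrm2 was at 1.38 (adjusted p = 0.0559) and the sliding clamp Pcna at 1.01 (adjusted p = 0.0614). Pcna read 8.71, 8.76, 8.60 and 8.48 at 0 h and 8.98, 9.35, 10.32 and 9.95 at 24 h, so the groups did not overlap there although the gene was not called. Uhrf1, which guides maintenance DNA methylation to new strands, read 2.91, 1.52, 0.68 and 2.12 at 0 h and 4.29, 5.56, 7.67 and 5.90 at 24 h (4.05 ± 0.77, adjusted p = 0.0257). All 4 of its values at 0 h lay below the limit, so its fold is imprecise.

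Some members ran the other way. Mcm10, an initiation factor, was lower at its bright probe set, with 9.43, 9.62, 9.77 and 9.84 at 0 h and 5.46, 7.86, 7.73 and 6.66 at 24 h (-2.74 ± 0.52, adjusted p = 0.0254), and at a dimmer one (-1.80, adjusted p = 0.0366), but a further probe set was higher without a call (1.01, adjusted p = 0.0528). The salvage enzyme Tk1 read 6.75, 6.85, 6.75 and 7.03 at 0 h and 3.43, 4.83, 6.20 and 5.94 at 24 h and was not called (-1.74 ± 0.46, adjusted p = 0.0636). Against 13 members called with all arrays, 4, 6, 2 and 1 without an array at 0 h and 15, 5, 9 and 5 without an array at 24 h were called, and only Mcm2 was called in all 8 fits. The median of the list stayed between 0.73 and 1.19 in those fits. It was 0.19 with the 3' to 5' ratio as a covariate, the lowest of all settings.

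The letters TTTCCCGC or TTTGGCGC, which E2F proteins bind, were searched in the same promoter windows on both strands. They were found in 427 of 32851 windows (1.3%), in 333 of 14452 promoters of measured genes (2.30%), in 32 of 781 promoters of called rises (4.10%) and in 20 of 866 of called falls (2.31%). Of the 36 replication genes with a promoter in the table, 6 held them, 3 of 11 that rose (Mcm5, Mcm6 and Mcm7) and 3 of 25 others (Cdc6, Gins3 and Pola1). The stretches around the matches of the helicase genes are printed with the matches in capitals, each on the strand of its gene, at chr8:75109325-75109402 (plus strand), chr1:128359710-128359850 (minus strand) and chr5:138172006-138172083 (minus strand) of GRCm38.p6:
Mcm5: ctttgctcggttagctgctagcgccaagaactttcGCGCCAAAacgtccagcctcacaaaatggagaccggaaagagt
Mcm6: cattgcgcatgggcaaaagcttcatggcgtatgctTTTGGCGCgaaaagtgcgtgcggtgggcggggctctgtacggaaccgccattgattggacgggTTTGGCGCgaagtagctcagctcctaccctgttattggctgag
Mcm7: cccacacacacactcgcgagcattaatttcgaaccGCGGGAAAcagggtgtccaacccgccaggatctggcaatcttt
The match of Mcm5 began 149 bases before the start and that of Mcm7 165 bases before it, and the Mcm6 promoter held 2 matches, 110 and 47 bases before it. These 3 genes rose by 3.43, 3.07 and 1.20, and Mcm2 and Mcm4 rose by 2.91 and 2.99 with none of these letters in the window.

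Upstream of replication, 7 of 22 regulators of the G1 to S step rose and 1 fell (median 0.41). Cyclin D1 (Ccnd1), the growth factor sensor of G1, read 6.41, 7.18, 8.73 and 7.53 at 0 h and 8.83, 8.75, 9.94 and 9.40 at 24 h (1.77 ± 0.32, adjusted p = 0.023), with every array at 24 h above the highest at 0 h by a small margin. Cyclin E2 (Ccne2), which drives S phase entry, read 4.08, 3.88, 4.79 and 3.91 at 0 h and 5.20, 6.14, 7.29 and 6.35 at 24 h (2.08 ± 0.36, adjusted p = 0.02). The CDK-binding protein Cks1b rose by 1.16, the E2F partner Tfdp1 by 0.93, E2f3 by 0.82 and Cdk4 by 0.58. The pocket protein Rbl2, a repressor of E2F targets in quiescent cells, fell by 0.92. Cyclin E1 (Ccne1) was called higher at its brighter probe set (0.64) and lower at another (-0.73), so no direction is given for it. Cyclin A2 (Ccna2) was at -0.16 (adjusted p = 0.59). The count of 8 calls of this list became 3, 4, 3 and 1 without an array at 0 h and 5, 4, 5 and 6 without an array at 24 h, and Cks1b was called throughout.

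Few genes of G2 and mitosis were called at this time. Of 35 measured, 3 rose and none fell (8.57% called against 11.4% of all genes), with a median of 0.21. The spindle checkpoint gene Mad2l1 read 3.95, 4.72, 4.70 and 4.65 at 0 h and 5.36, 5.93, 7.38 and 7.03 at 24 h (1.92 ± 0.32, adjusted p = 0.0185), the condensin subunit Smc2 rose by 1.90 and the mitotic kinase Aurkb by 0.89. Cdk1, the kinase of mitotic entry, read 5.04, 5.04, 5.27 and 5.43 at 0 h and 4.38, 5.84, 7.90 and 7.22 at 24 h and was not called (1.14 ± 0.53, adjusted p = 0.225): the first wild type array at 24 h lay below all arrays at 0 h and the other 3 above them. The proliferation marker Mki67 (0.05, adjusted p = 0.921) and topoisomerase Top2a (-0.09, adjusted p = 0.796) were not called, and both were dim. The count of 3 calls became 0, 1, 0 and 0 without an array at 0 h and 3, 0, 2 and 1 without an array at 24 h, and the median of the list was -0.13 with the 3' to 5' ratio as a covariate. In the plot of list medians by array, the replication list at 24 h ran from 0.47 in the first wild type array to 1.60 in the first Tob1 null array, above the 4 arrays at 0 h (-0.07 to 0.12), while the mitosis list overlapped.

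**Figure D2:**
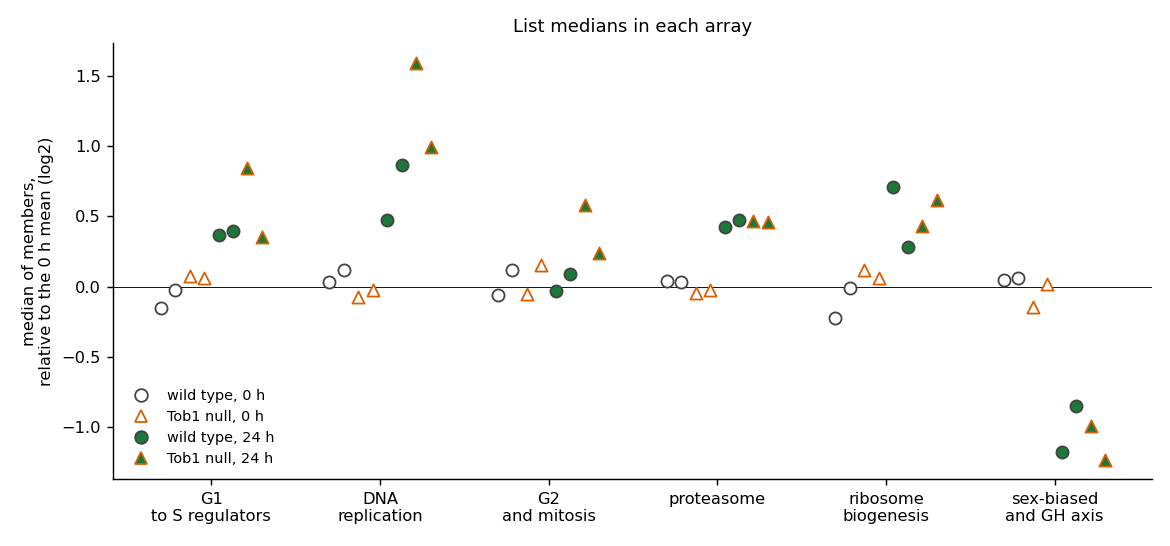
Median over the members of 6 gene lists in each of the 8 arrays, as log2 signal relative to the mean of the 4 arrays at 0 h (y axis); circles are wild type and triangles Tob1 null, open at 0 h and filled at 24 h. The times do not overlap for the G1 to S, DNA replication, proteasome, ribosome biogenesis and sex-biased lists, and they overlap for G2 and mitosis.

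No gene of the antiproliferative list was called. It held 22 CDK inhibitors, p53 targets and Btg/Tob family members, of which 9 had an unadjusted p under 0.05, and with a trended and robust prior limma called 2 higher and 5 lower. With the deposited scaling, or without the second Tob1 null array at 0 h, 1 was called. Tob1 itself read 10.46, 10.53, 11.10 and 11.03 at 0 h and 9.87, 10.20, 10.66 and 10.59 at 24 h over both genotypes (-0.45 ± 0.12, adjusted p = 0.0667), and Tob2 differed by -0.44 (adjusted p = 0.264). The Tob1 null arrays read no lower than wild type at this probe set, so it does not check the genotype labels, which have no bearing on a difference averaged over genotypes. Btg1 (-0.25), Btg2 (0.78), the p21 gene Cdkn1a (0.59) and the p27 gene Cdkn1b (-0.36) were not called either. Immediate early genes, the first transcriptional wave of growth stimulation, were called in 3 of 21 cases, a share close to the 11.4% of all genes, each of them lower at its brightest probe set. Dusp1, a phosphatase of MAP kinases, read 9.73, 9.99, 10.26 and 9.69 at 0 h and 8.20, 7.20, 7.21 and 7.81 at 24 h (-2.31 ± 0.28, adjusted p = 0.00944), without overlap and called in all 8 fits. Zfp36, which destabilises cytokine messages, fell by 1.02. Fosl2 was called lower at its brighter probe set (-1.26) and higher at another (1.01), so its direction is not settled. Fos (0.61, adjusted p = 0.653), Jun (-0.07, adjusted p = 0.935) and Myc (0.31, adjusted p = 0.489) were not called.

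Receptors and regulators of growth and cytokine signalling changed in both directions. Of 40 measured, 8 rose and 6 were called lower (median 0.19). Tnfrsf12a (Fn14), the receptor of the mitogenic cytokine TWEAK, read 5.86, 6.27, 6.03 and 5.91 at 0 h and 11.08, 9.21, 8.84 and 10.79 at 24 h (3.96 ± 0.54, 15.6-fold, adjusted p = 0.0121), and all arrays at 24 h lay far above those at 0 h. Of the receptor chains for interleukin-6 family cytokines, the oncostatin M receptor Osmr rose by 2.24 (a dimmer probe set, at 0.66, was not called). The shared chain Il6st (gp130) rose by 0.70. Of its 3 other probe sets 1 was called higher (0.89), and those at 0.39 and -0.11 were not called. The interleukin-1 receptor Il1r1, of another family, rose by 1.42. The interleukin-22 receptor Il22ra1 read 3.61, 3.73, 0.52 and 1.06 at 0 h and 5.46, 5.65, 5.21 and 5.81 at 24 h (3.30 ± 0.58, adjusted p = 0.0205), and its low values at 0 h in the Tob1 null arrays make the fold imprecise. The LIF receptor Lifr fell by 1.18, and the interleukin-6 receptor Il6ra was at -0.70 (adjusted p = 0.11).

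Follistatin (Fst), which traps activins that restrain hepatocyte growth, read 3.72, 3.96, 2.63 and 3.59 at 0 h and 6.99, 5.04, 5.90 and 6.48 at 24 h (2.63 ± 0.48, adjusted p = 0.023). The activin receptor Acvr2a fell by 0.61. The activin subunit gene Inhbb gave opposite calls at 2 probe sets (-0.74 and 2.29). Of the EGF family, the ligand Tgfa rose by 0.85 at its brightest probe set (2 others stood at -0.17 and 0.13 without a call), the receptor Erbb3 fell by 0.99, and Egfr was at -1.21 (adjusted p = 0.153). Hgf (0.61, adjusted p = 0.326) and its receptor Met (-0.24, adjusted p = 0.236) were not called, while the HGF activator Hgfac fell by 1.07. Klb, the co-receptor through which FGF19 family hormones act on hepatocytes, fell by 1.45, from 7.65 ± 0.13 at 0 h to 6.20 ± 0.61 at 24 h. Against 14 members called with all arrays, 4, 5, 3 and 4 without an array at 0 h and 4, 9, 10 and 6 without an array at 24 h were called, and Tnfrsf12a and Hgfac were called in all 8 fits.

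In 4 lists for making, folding and degrading protein, all of the called genes were higher at 24 h. All 31 proteasome subunits measured had a positive difference, with a median of 0.46, and 14 rose. The ATPase subunit Psmc4 read 9.75, 9.68, 9.60 and 9.67 at 0 h and 10.61, 10.71, 10.44 and 10.53 at 24 h (0.90 ± 0.11, adjusted p = 0.00947), and the deubiquitinating subunit Psmd14 rose by 0.89. The list median moved from between -0.04 and 0.04 in the arrays at 0 h to between 0.43 and 0.47 at 24 h. Ribosome biogenesis genes had 9 rises of 34 and no fall (median 0.47), among them the snoRNP proteins Nhp2 (1.17), Nop58 (1.40) and Gar1 (1.25), the nucleolar protein nucleolin, Ncl (0.92, with further probe sets called at 1.26 and 0.82 and uncalled at 0.37 and -0.22), and Rrp12 (1.59). Of 24 ribosomal protein genes, all with a positive difference, 2 rose (median 0.26, or 0.10 with the deposited scaling). That share, 8.33%, lay below the 11.4% of all genes. The cytosolic folding list had 9 rises of 21 (median 0.41): 7 subunits of the CCT chaperonin, which folds actin and tubulin, namely Tcp1, Cct2, Cct3, Cct5, Cct6a, Cct7 and Cct8, with Hsp90aa1 (0.81) and Hspa4 (0.69, with other probe sets at 0.25 and -0.40 not called).
The proteasome and folding differences were close to the smallest difference called in any gene, 0.43. Without each array, the proteasome calls numbered 3, 2, 1 and 1 at 0 h and 4, 5, 7 and 6 at 24 h, the ribosome biogenesis calls 1, 2, 2 and 0 and then 4, 6, 5 and 1, and the folding calls 1, 0, 1 and 0 and then 2, 2, 4 and 5. With a trended and robust prior, limma called 27 proteasome, 17 ribosome biogenesis and 11 folding genes, all higher.

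In the endoplasmic reticulum and amino acid stress list, 8 of 28 genes rose and 1 fell (median 0.36). The serine synthesis enzyme Psat1 led it, with 3.81, 4.22, 4.26 and 4.09 at 0 h and 6.66, 6.23, 6.55 and 7.13 at 24 h (2.55 ± 0.20, adjusted p = 0.00553) and no overlap, followed by asparagine synthetase, Asns (1.62), and the secretory pathway proteins Creld2 (1.05) and Manf (0.91). The chaperone BiP, encoded by Hspa5, rose by 0.60. Herpud1, a component of ER-associated degradation, fell by 0.998, and the stress transcription factors Atf4 (0.07, adjusted p = 0.877) and Ddit3 (-0.20, adjusted p = 0.669) were not called. Counts without each array were 3, 3, 2 and 3 at 0 h and 5, 6, 5 and 5 at 24 h, against 9 with all.

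Of 20 lipid droplet genes, 8 rose and 1 fell (median 0.68). Cidec, which fuses droplets, read 2.38, 3.33, 3.40 and 3.10 at 0 h and 9.80, 8.68, 6.11 and 8.17 at 24 h (5.14 ± 0.69, adjusted p = 0.0119); all 4 values at 0 h lay below the limit and the first Tob1 null array was the lowest at 24 h. Apoa4, an apolipoprotein of triglyceride-rich lipoproteins, read 8.33, 8.43, 9.78 and 9.31 at 0 h and 12.98, 12.84, 12.04 and 12.02 at 24 h (3.51 ± 0.42, adjusted p = 0.0091). The fatty acid carrier Fabp4 rose by 2.01, and the droplet coat proteins Plin2, Plin4 and Plin5 by 0.92, 1.22 and 1.16. Cidea (1.46) was called with both time means at or below the limit. The lipase Pnpla2 was at 0.88 (adjusted p = 0.0856) and the fatty acid transporter Cd36 at 0.43 (adjusted p = 0.423). The count of 9 calls became 4, 4, 4 and 4 without an array at 0 h and 4, 6, 8 and 5 without an array at 24 h.

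Of 24 genes of fatty acid synthesis and its control, none rose and 8 fell (median -0.50). Both transcription factors at its head fell: Srebf1 (SREBP-1c) read 9.16, 8.96, 9.88 and 9.54 at 0 h and 7.18, 7.01, 7.82 and 7.06 at 24 h (-2.12 ± 0.21, adjusted p = 0.00693) and Mlxipl (ChREBP) 8.97, 8.91, 8.90 and 8.59 at 0 h and 6.39, 7.07, 6.92 and 5.97 at 24 h (-2.26 ± 0.25, adjusted p = 0.00854), neither with overlap. Of their targets, Thrsp fell by 2.06 at its brightest probe set (another, at 0.13, was not called), Elovl3 by 1.84 and the acetate-activating enzyme Acss2 by 2.00. The fatty acid synthase Fasn (-0.50, adjusted p = 0.231) and the desaturase Scd1 (-0.49, adjusted p = 0.594) were not called. The count of 8 calls became 3, 2, 3 and 3 without an array at 0 h and 4, 7, 8 and 4 without an array at 24 h. Of 20 cholesterol synthesis genes only Insig2, an inhibitor of SREBP processing, was called (1.51, adjusted p = 0.0345). That share, 5.0%, lay below the 11.4% of all genes. The list's median of 0.13 was -0.72 with the 3' to 5' ratio as a covariate, so it has no settled sign. Fatty acid oxidation genes had 4 rises and 2 falls of 26 (23.1% called against 11.4% of all genes, median 0.09). All 26 had a time mean above the limit, where 14.8% of genes were called. Pdk4, the kinase that closes the pyruvate dehydrogenase step, read 6.08, 5.73, 4.57 and 4.47 at 0 h and 9.87, 7.22, 7.29 and 8.71 at 24 h (3.06 ± 0.61, adjusted p = 0.0295). The thioesterase Acot2 rose by 1.33 and the peroxisomal enzyme Ehhadh by 0.96, while Cpt1a, the gate of mitochondrial import, stood at 0.05 (adjusted p = 0.946). No gene of this list was called in all 8 fits that leave out 1 array (1, 0, 0 and 0 without an array at 0 h and 0, 1, 2 and 0 without an array at 24 h).

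The largest fall of all genes was that of Upp2, a uridine phosphorylase of liver, which read 10.76, 10.30, 11.10 and 10.85 at 0 h and 4.60, 4.90, 6.32 and 5.73 at 24 h (-5.37 ± 0.25, adjusted p = 0.00185). The lipid transporter Abca8a read 9.52, 9.74, 10.20 and 10.31 at 0 h and 4.98, 5.37, 6.94 and 5.74 at 24 h (-4.18 ± 0.29, adjusted p = 0.00367). In both, the Tob1 null arrays at 24 h lay above the wild type arrays at 24 h, yet well below every array at 0 h. Afmid, an enzyme of tryptophan breakdown, read 9.28, 9.39, 9.33 and 9.21 at 0 h and 5.88, 6.40, 6.13 and 6.08 at 24 h (-3.18 ± 0.15), and the phospholyase Etnppl fell by 3.13, both without overlap. Among the genes with the smallest p were also falls of the carbonic anhydrase Car1 (-2.44 ± 0.14, adjusted p = 0.00253), the acetyltransferase Nat8f1 (-2.39 ± 0.15, adjusted p = 0.00306) and the peptidase Mme, neprilysin (-2.72 ± 0.17, adjusted p = 0.00306).

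Genes whose liver expression differs between the sexes and follows the pulses of growth hormone had the lowest median of the 28 biology lists, -1.21. Of 26 measured, 16 fell and 1 rose. Hsd3b5, a steroid dehydrogenase of male liver, read 11.51, 11.48, 11.36 and 11.61 at 0 h and 4.70, 8.24, 8.96 and 7.61 at 24 h (-4.11 ± 0.81, adjusted p = 0.0287): the arrays at 0 h lay between 11.36 and 11.61 and those at 24 h were spread from 4.70 to 8.96. It was called in 3 of the 8 fits that leave out 1 array. The related Hsd3b2 read 8.34, 8.28, 7.94 and 8.33 at 0 h and 3.07, 4.37, 5.63 and 4.01 at 24 h (-3.96 ± 0.48, adjusted p = 0.00964) and was called in all 8, although closely related Hsd3b sequences may share probes. Slco1a1, an organic anion transporter of male liver, read 10.66, 10.58, 10.18 and 10.59 at 0 h and 8.85, 8.98, 8.66 and 8.60 at 24 h (-1.73 ± 0.13, adjusted p = 0.00553), with narrow groups far apart. Of the growth hormone axis itself, the receptor Ghr fell by 1.04, the transducer Stat5b by 1.21 (another probe set, at -0.15, was not called), and the carriers of circulating IGF-1, Igfals and Igfbp3, by 1.29 and 0.71. Igf1 stood at 0.19 (adjusted p = 0.378) and the feedback inhibitor Socs2 at -2.23 (adjusted p = 0.0926). The member that rose, Igfbp1, is an IGF-binding protein known to be induced in regenerating and fasting liver, and it read 11.36, 11.55, 8.82 and 8.88 at 0 h and 12.36, 11.89, 10.76 and 10.56 at 24 h (1.24 ± 0.26, adjusted p = 0.0349). The major urinary protein Mup3 was at -0.07. The count of 17 calls became 9, 8, 11 and 7 without an array at 0 h and 12, 15, 14 and 9 without an array at 24 h, and 7 genes were called in all 8 fits.

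**Figure D3:**
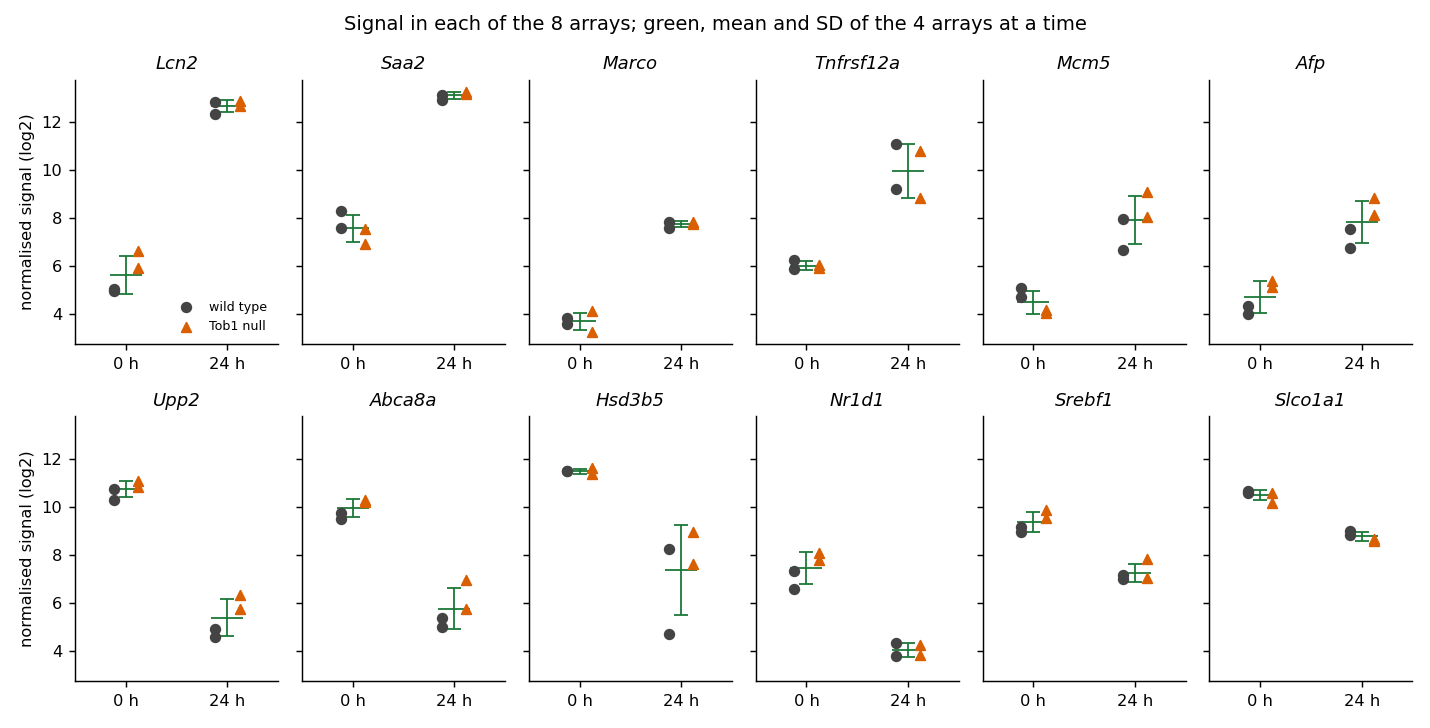
Log2 signal (y axis) of 12 genes in the 4 arrays at 0 h and the 4 at 24 h (x axis); circles are wild type arrays, triangles Tob1 null arrays, and the green bar shows the mean and SD of the 4 arrays. The times do not overlap in any of the 12, and spread at 24 h is widest for Hsd3b5 (4.70 to 8.96).

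Of 38 cytochrome P450 and other phase 1 genes measured, 16 fell and 1 rose (median -0.72). Cyp2c23, an arachidonic acid epoxygenase, read 11.11, 11.35, 11.35 and 11.35 at 0 h and 9.61, 9.82, 9.94 and 9.78 at 24 h (-1.50 ± 0.12, adjusted p = 0.00553), and Cyp2f2, which marks periportal hepatocytes, 12.68, 12.61, 12.67 and 12.73 at 0 h and 11.29, 11.44, 11.57 and 11.25 at 24 h (-1.28 ± 0.12, adjusted p = 0.00693). Cyp4f14 fell by 1.64, the carboxylesterase Ces1d by 1.60 and the pericentral Cyp1a2 by 1.12. The 1 rise was that of Cyp2b10, the typical target of the receptor CAR, which read 8.33, 8.66, 9.65 and 9.85 at 0 h and 10.05, 9.65, 11.05 and 11.09 at 24 h (1.34 ± 0.15, adjusted p = 0.00852). The genes of CAR itself (Nr1i3, 1.03, adjusted p = 0.0637), of PXR (Nr1i2, 0.27) and of Cyp3a11 (-0.23, adjusted p = 0.268) and Cyp2e1 (-0.29, adjusted p = 0.171) were not called. The count of 17 calls became 10, 9, 11 and 9 without an array at 0 h and 13, 12, 14 and 12 without an array at 24 h.

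Most called conjugating enzymes fell as well. Of 31 measured, 11 fell and 4 rose (median -0.57). The bile acid sulfotransferase Sult2a8 read 12.04, 11.99, 11.92 and 11.93 at 0 h and 10.16, 10.38, 9.82 and 9.93 at 24 h (-1.90 ± 0.13, adjusted p = 0.00348), the glucuronosyltransferase Ugt2b38 fell by 1.79 and Ugt2b1 by 1.26. Sult1e1, the oestrogen sulfotransferase, rose, with 2.78, 2.76, 3.17 and 3.40 at 0 h and 8.41, 7.20, 7.75 and 9.89 at 24 h (5.29 ± 0.49, adjusted p = 0.00691). All 4 of its values at 0 h lay below the limit of 3.60, so its fold is imprecise. The glutathione transferase Gstt3 rose by 1.52, Sult1a1 by 0.88 and Gstt2 by 0.80. The count of 15 calls became 8, 6, 7 and 7 without an array at 0 h and 9, 10, 9 and 9 without an array at 24 h. In bile acid synthesis and transport 7 of 25 genes fell and none rose (median -0.50). Cyp8b1, which sets the share of cholic acid, read 11.16, 11.33, 10.26 and 10.81 at 0 h and 9.22, 10.30, 8.20 and 7.07 at 24 h (-2.19 ± 0.43, adjusted p = 0.0283). The reductase Akr1d1 fell by 1.99, the sterol hydroxylase Cyp27a1 by 0.75, and the sodium-dependent uptake carrier Slc10a1 (NTCP) by 0.90. Cyp7a1, the rate-limiting enzyme, read 7.73, 9.62, 9.44 and 8.66 at 0 h and 5.84, 7.05, 8.58 and 6.45 at 24 h and was not called (-1.88 ± 0.64, adjusted p = 0.115), nor was the bile salt export pump Abcb11 (-1.72, adjusted p = 0.0503). The count of 7 calls in the bile acid list became 3, 3, 4 and 2 without an array at 0 h and 6, 7, 5 and 4 without an array at 24 h.

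Of 36 genes of the urea cycle and amino acid metabolism, 12 fell and 2 rose (median -0.42). In histidine breakdown Amdhd1 read 9.98, 9.94, 10.02 and 10.04 at 0 h and 7.69, 8.26, 8.43 and 8.75 at 24 h (-1.71 ± 0.19, adjusted p = 0.00854) and Uroc1 fell by 0.99. In tryptophan breakdown Haao read 10.93, 10.92, 10.91 and 10.84 at 0 h and 9.29, 9.60, 9.40 and 9.09 at 24 h (-1.56 ± 0.14, adjusted p = 0.00613) and Kynu fell by 1.34. The proline enzymes Prodh and Aldh4a1 fell by 1.29 and 1.24, the tyrosine enzymes Fah and Hpd by 0.95 and 0.86, and the cysteine-forming Cbs by 1.22. Within the urea cycle, Otc fell by 0.77, and Cps1 (-0.40, adjusted p = 0.0848), Ass1 (0.34, adjusted p = 0.627), Asl (0.56, adjusted p = 0.0523) and Arg1 (0.44, adjusted p = 0.0675) were not called. The rises were those of Mat1a, which makes S-adenosylmethionine (1.13), and the lysine enzyme Aass (0.98). The count of 14 calls became 9, 8, 8 and 7 without an array at 0 h and 10, 11, 13 and 9 without an array at 24 h.

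Of 29 genes of glucose metabolism 3 rose and 4 fell (24.1% called against 11.4% of all genes). All 29 had a time mean above the limit, where 14.8% of genes were called. Of probe sets with a mean between 8 and 10, 23.8% were called. The median of the list was -0.07, or 0.01 with median centring. The rises were the glycolytic genes Pkm (1.07), Aldoa (0.89) and Tpi1 (0.55), the first of which encodes the pyruvate kinase of tissues other than liver, while the liver pyruvate kinase Pklr fell by 0.77. Pkm read 5.59, 5.38, 5.21 and 5.38 at 0 h and 6.69, 6.31, 6.37 and 6.45 at 24 h, without overlap. The glycogen phosphorylase Pygl fell by 1.35, the glucokinase regulator Gckr by 0.55 and the glucose carrier Slc2a2 by 0.52. The gluconeogenic genes Pck1 (-0.07, adjusted p = 0.818) and G6pc (-0.92, adjusted p = 0.253) were not called. The count of 7 calls became 2, 3, 3 and 2 without an array at 0 h and 2, 3, 3 and 2 without an array at 24 h. Of 34 respiratory chain genes 1 fell and 1 rose (5.88% called against 11.4% of all genes). The succinate dehydrogenase subunit Sdha fell by 0.72, with another probe set at -0.27 not called. Cytochrome c, Cycs, rose by 0.50, with a dim probe set at -0.72 not called. Of the 34 differences 29 were negative, with a median of -0.18. Neither Sdha nor Cycs was called in all 8 fits (0, 0, 0 and 0 without an array at 0 h and 1, 1, 1 and 1 without an array at 24 h).

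Clock genes changed in both directions. Of 19 measured, 2 fell and 2 rose (21.1% called against 11.4% of all genes). All 19 had a time mean above the limit, where 14.8% of genes were called. The repressor Nr1d1 (REV-ERB alpha) read 6.59, 7.34, 8.10 and 7.80 at 0 h and 3.77, 4.33, 4.24 and 3.82 at 24 h (-3.42 ± 0.30, adjusted p = 0.00613) and its relative Nr1d2 fell by 0.996. The repressors Per2 and Cry1, which act at another phase of the daily cycle, rose, Per2 at its brightest probe set, with 4.13, 4.59, 5.05 and 4.41 at 0 h and 6.74, 6.22, 6.16 and 6.18 at 24 h (1.78 ± 0.25, adjusted p = 0.0127), and Cry1 by 1.46. The other 2 probe sets of Per2, with means of 4.61 and 4.31 at 0 h, were at 0.22 (adjusted p = 0.416) and 0.25 (adjusted p = 0.495) without a call. Dbp, an output gene of the clock, read 7.38, 7.44, 9.84 and 9.27 at 0 h and 6.41, 6.66, 6.01 and 5.90 at 24 h at its brightest probe set. It was not called there (-2.24 ± 0.55, adjusted p = 0.0509), but a dimmer probe set was called lower (-2.41 ± 0.58, adjusted p = 0.0478). The activator Arntl was at 0.73 (adjusted p = 0.196). The hours of day at which the animals were operated on and killed are not given in the sources used here, so time after the operation and time of day cannot be told apart for these genes. The count of 4 calls became 4, 3, 4 and 2 without an array at 0 h and 4, 4, 4 and 4 without an array at 24 h.

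Among 18 transcription factors of hepatocyte identity only Cebpa, an antiproliferative factor of mature hepatocytes, was called (5.56% against 11.4% of all genes). It read 10.25, 10.44, 10.85 and 10.75 at 0 h and 8.71, 9.22, 9.13 and 8.52 at 24 h (-1.68 ± 0.22, adjusted p = 0.0114), without overlap and called in all 8 fits that leave out 1 array. Hnf4a stood at -0.34 (adjusted p = 0.157) and Foxa2 at -0.52 (adjusted p = 0.0989). Of 20 genes of Wnt signalling and zonation, 3 fell and 1 rose (median -0.27). The R-spondin receptor Lgr4 read 9.21, 9.07, 9.07 and 9.15 at 0 h and 7.72, 8.16, 8.22 and 7.86 at 24 h (-1.14 ± 0.15, adjusted p = 0.0124), the ammonia channel Rhbg fell by 1.14 and Cyp1a2 by 1.12, and the ligand Rspo3 rose by 0.85 at its brightest probe set (another, near the limit, was at -0.60 without a call). The Wnt target Axin2 (-0.08, adjusted p = 0.861) and glutamine synthetase, Glul (-0.56, adjusted p = 0.163), were not called. The count of 4 calls of this list became 3, 3, 4 and 3 without an array at 0 h and 3, 3, 3 and 3 without an array at 24 h.

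Of 37 interferon-induced and antigen presentation genes, 15 fell, none rose and 22 were not called (median -0.53). The chemokine Cxcl9, a target of interferon gamma, read 7.36, 6.94, 7.40 and 7.36 at 0 h and 5.95, 5.85, 5.57 and 5.84 at 24 h (-1.46 ± 0.16, adjusted p = 0.00854), and a dimmer probe set at -0.30 was not called. The class II genes H2-Aa, H2-Eb1 and H2-Ab1 fell by 1.37, 1.24 and 1.18 and their chaperone Cd74 by 1.02, though related class II sequences may share probes. The immunoproteasome subunits Psmb8 and Psmb10 fell by 1.14 and 0.77, while the constitutive counterparts Psmb5 (0.36), Psmb6 (0.43) and Psmb7 (0.30) were not called. Irf7 fell by 0.96 and the antiviral genes Ifit1 and Ifit3 by 0.85 and 0.80. The class I genes H2-K1 (-0.37, adjusted p = 0.0795) and B2m (-0.32, adjusted p = 0.12) were not called. The count of 15 calls became 3, 3, 3 and 4 without an array at 0 h and 4, 9, 11 and 6 without an array at 24 h. Class II genes are borne by antigen-presenting cells. Of the markers below, 2 rose and 1 fell of 13 for Kupffer cells and macrophages, and 2 fell of 12 for lymphocytes. Those 2, Nkg7 and Cd8a, were each called in only 1 of the 8 fits that leave out 1 array. The part of any cell type in the falls of class II genes was not tested.

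Complement and coagulation proteins that the liver secretes also fell: 16 of 33, with no rise (median -0.48). Prekallikrein, Klkb1, read 11.09, 11.14, 11.06 and 10.96 at 0 h and 7.95, 9.19, 9.20 and 8.87 at 24 h (-2.26 ± 0.29, adjusted p = 0.0106), coagulation factor F7 9.46, 9.45, 9.64 and 9.45 at 0 h and 7.91, 8.19, 8.38 and 7.83 at 24 h (-1.42 ± 0.16, adjusted p = 0.00854), and C2, a protease of the classical pathway, 9.62, 9.42, 9.38 and 9.53 at 0 h and 8.12, 8.09, 8.20 and 8.24 at 24 h (-1.33 ± 0.12, adjusted p = 0.00637). The lectin Mbl2 fell by 1.39, the heparin cofactor Serpind1 by 1.32 and the membrane attack components C6, C8b and C9 by 1.20, 0.86 and 0.79. Prothrombin, F2 (-0.36, adjusted p = 0.0854), and antithrombin, Serpinc1 (-0.32, adjusted p = 0.116), were not called. These falls stood beside the rises of other secreted proteins in the acute phase list, such as haptoglobin, Hp (0.57), and Itih3 (0.81). The count of 16 calls became 9, 9, 8 and 5 without an array at 0 h and 9, 12, 12 and 11 without an array at 24 h.

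**Figure D4:**
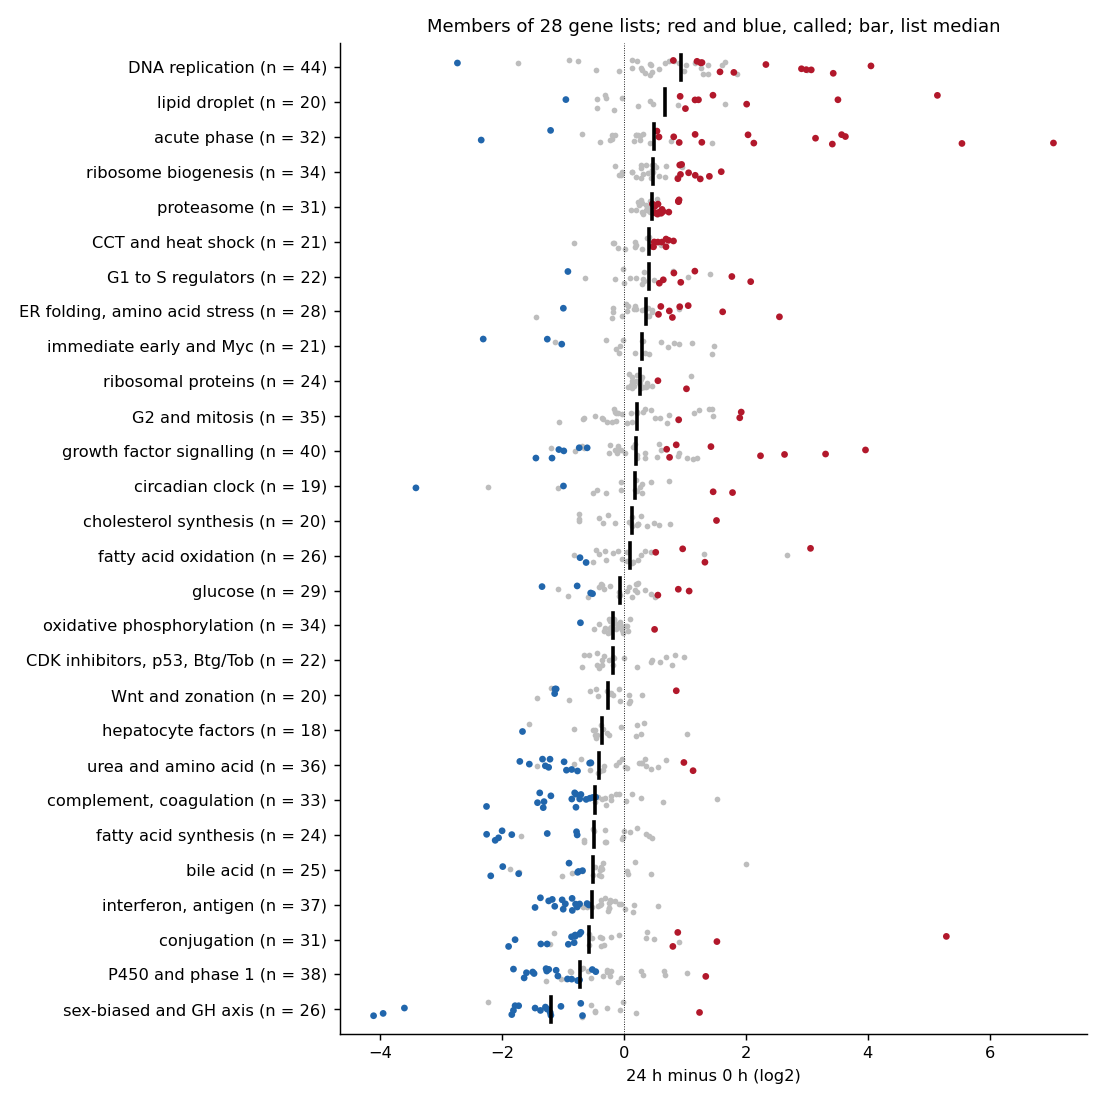
Each point is a member of 1 of 28 gene lists (y axis) at its log2 difference, 24 h minus 0 h (x axis); red and blue points were called higher and lower, grey points were not called, and the bar is the median of the list. The sex-biased list has the lowest median (-1.21) and the DNA replication list the highest (0.94).

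Markers of other cells were measured beside these changes, and their part in them was not tested unless stated. Among 8 markers of bile duct and progenitor cells Afp was called. Alpha-fetoprotein, made by fetal hepatocytes, read 4.01, 4.33, 5.37 and 5.15 at 0 h and 7.56, 6.78, 8.12 and 8.85 at 24 h (3.11 ± 0.25, adjusted p = 0.00553). The summed linear signal of the 8 was 170 to 223 at 0 h and 345 to 716 at 24 h, and much of that rise was Afp. Krt19 (0.48), Krt7 (0.34) and Epcam (0.02) were not called. Of the 8 differences 7 were positive and 1 negative (median 0.49), and 12.5% were called against 11.4% of all genes. Of 13 Kupffer cell and macrophage markers 2 rose and 1 fell (23.1% called against 11.4% of all genes). All 13 had a time mean above the limit, where 14.8% of genes were called. The scavenger receptor Marco read 3.83, 3.58, 4.12 and 3.25 at 0 h and 7.57, 7.84, 7.85 and 7.78 at 24 h (4.07 ± 0.21, 16.7-fold, adjusted p = 0.00224), and the haemoglobin receptor Cd163 rose by 0.75. Csf1r fell by 0.71, Clec4f (-0.59, adjusted p = 0.121) and Adgre1 (-0.52, adjusted p = 0.093) were not called, and the summed signal of the list overlapped between the times (3156 to 3788 and 2767 to 3920).

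Of 9 neutrophil and monocyte markers S100a8 and S100a9, subunits of calprotectin, rose by 2.88 and 2.25, while Mpo, Elane, Camp and Csf3r lay below the limit. The summed signal was 215 to 259 at 0 h and 279 to 749 at 24 h. Of the 9 differences 5 were positive and 4 negative (median 0.13), and 22.2% were called against 11.4% of all genes. Both S100 calls were lost without each of the 4 arrays at 0 h. The lymphocyte markers Nkg7 and Cd8a fell by 0.92 and 0.61 of 12 measured, with Cd3e, Cd3g, Cd4 and Cd8b1 below the limit, and the sum was 287 to 316 at 0 h and 232 to 266 at 24 h. Of the 12, 16.7% were called against 11.4% of all genes. Nkg7 and Cd8a were each called in only 1 of the 8 fits that leave out 1 array. Other Cd8a probe sets above the limit, at 0.09 and -0.58, were not called. Of 12 endothelial markers Pecam1 rose (0.79), and of 12 stellate and matrix markers Tagln, an actin-binding protein of contractile cells, rose by 2.29 while Reln, Des and Col3a1 fell by 0.94, 0.87 and 0.85. None of these 5 was called in all 8 fits, and the summed signals overlapped in both lists. The shares called were 8.33% of endothelial and 33.3% of stellate and matrix markers, against 11.4% of all genes. The erythroid enzyme Alas2 read 10.28, 10.25, 9.55 and 9.85 at 0 h and 9.17, 9.18, 8.43 and 8.63 at 24 h (-1.13 ± 0.13, adjusted p = 0.00854). The sum of the 5 erythroid markers was 842 to 1338 at 0 h and 437 to 669 at 24 h, and Alas2 made up most of it. Of the 5 differences 3 were positive and 2 negative (median 0.13), and only Alas2 was called. The pancreatic elastase Cela1 fell by 1.30, with the other 5 adipocyte and pancreas markers below the limit. The sums of 443 to 599 at 0 h and 184 to 250 at 24 h were therefore mostly Cela1. Of the list's differences 3 were positive and 3 negative.

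Some genes with large differences belonged to no list. Ly6d, a membrane protein of the Ly6 family, read 5.42, 5.18, 5.24 and 5.63 at 0 h and 8.94, 8.24, 10.11 and 9.44 at 24 h (3.81 ± 0.31, adjusted p = 0.00553), and Acnat2, of the acyl-CoA amino acid N-acyltransferase family, 4.78, 5.33, 6.31 and 5.49 at 0 h and 8.32, 8.78, 9.22 and 8.44 at 24 h (3.21 ± 0.30, adjusted p = 0.00682). Pgm3, an enzyme of the hexosamine pathway, rose by 2.19 with 6.95, 6.89, 6.55 and 6.50 at 0 h and 9.36, 9.33, 8.35 and 8.61 at 24 h, and the times did not overlap in these 3 genes. Among genes seen at 1 time only, Mybl1 read 1.49, 1.44, 2.42 and 2.67 at 0 h and 4.99, 3.97, 6.59 and 6.98 at 24 h and Cer1 1.89, 1.85, 1.25 and 0.00 at 0 h and 5.64, 4.78, 6.12 and 6.53 at 24 h. Serpinb1a read 4.16, 6.17, 8.07 and 7.42 at 0 h and 1.32, 1.03, 2.97 and 3.55 at 24 h: the wild type and the Tob1 null arrays at 0 h differed, with all 4 at 24 h below them. The folds of these last 3 genes are imprecise, since a mean at 1 of the times lay below the limit of 3.60.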

How the data were processed

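Liver RNA of 8 pools of 3 mice was hybridised to Affymetrix arrays as biotinylated cRNA, 1 pool an array, per the labels' protocols. The deposited values are log2 signals, as their range of -0.322 to 14.3 shows; no source used here names the signal algorithm. The arrays' quartiles differed by 0.619, 0.376 and 0.167 (lower, middle, upper; tolerance 0.1), so the 45037 non-control probe sets (64 controls left out) were quantile normalised. limma 3.58.1 (R 4.3.3; lmFit, eBayes, 5 residual and 1.79 prior degrees of freedom) was fitted with time and genotype as terms over all of them, with no filter, 4 arrays a time and 2 a group, and Benjamini-Hochberg adjustment. The fit was tested on simulated data. The number of arrays limits the precision.

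Symbols came from the platform annotation, matched by Entrez ID to RefSeq (GRCm38.p6): 34945 probe sets had 1 symbol, 932 several and 9160 none, and 34741 were matched. A gene was taken as its brightest probe set. Genes were named by rule: the 12 largest called differences without overlap in each direction with both means above the limit, the 6 largest with 1 mean above it, the 8 smallest p, the 5 smallest p of each list, named regulators, and 3 bright markers of each cell type. Other list members were chosen after their values were seen. The members and lists were chosen with earlier results of these data known. Alternatives covered scaling, filters, priors, array weights, the replicate block, RNA quality, thresholds and leaving out each array.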

Additional observations from a re-analysis of the deposited data

Results flagged for a closer look

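In 22 of 406 groups of 4 arrays (203 named genes at each time) 1 array stood apart from the other 3 by Dixon's criterion; chance alone gives about 1 in 20 groups, or 20.3 here. All 8 arrays were among them, each in 1 to 5 groups, and no explanation was tested. At 0 h the log2 signal of 1 array stood apart for Hsd3b2 (first Tob1 null array, 7.942 against 8.284 to 8.335), Rbl2 (second wild type array, 8.157 against 8.418 to 8.468), Mad2l1 (first wild type array, 3.946 against 4.65 to 4.716) and Cdkn2d (first wild type array, 6.299 against 6.722 to 6.769). The same held at 0 h for Cct3 (first Tob1 null array, 9.88 against 9.698 to 9.729), Cct6a (first wild type array, 10.792 against 10.662 to 10.676), Acadl (first wild type array, 10.375 against 10.463 to 10.478) and Slc10a1 (second Tob1 null array, 11.875 against 12.087 to 12.104). It held further at 0 h for Cyp2c23 (first wild type array, 11.106 against 11.347 to 11.354), Prodh (first Tob1 null array, 9.664 against 9.306 to 9.364), Cxcl9 (second wild type array, 6.938 against 7.36 to 7.399) and F7 (first Tob1 null array, 9.643 against 9.446 to 9.459). At 0 h it was also so for Cd79a (second Tob1 null array, 5.768 against 5.514 to 5.545) and Reln (second Tob1 null array, 7.845 against 8.58 to 8.639). At 24 h the log2 signal of 1 array stood apart for Cnmd (first wild type array, 2.092 against 4.57 to 4.822), Olfr480 (second Tob1 null array, 4.277 against 1.419 to 1.854), Svs6 (first Tob1 null array, 0.035 against 0 to 0) and Car1 (first Tob1 null array, 3.9 against 4.28 to 4.291). The same held at 24 h for Per2 (first wild type array, 6.742 against 6.156 to 6.217), Nr1d2 (second wild type array, 8.585 against 8.219 to 8.258), Hnf4a (second Tob1 null array, 10.929 against 11.103 to 11.127) and Clec4g (first wild type array, 7.814 against 8.732 to 8.905).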

How the results depend on the processing

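Against 4304 probe sets called (2254 higher, 2050 lower), filters on low signal left fewer tests and more calls: 7195 (3731 and 3464) above the 40th percentile in at least 2 arrays and 7951 (4022 and 3929) above the 60th in at least 4. A trended and robust prior gave 8062 (4232 and 3830) and adding 16 to the linear values 7823 (4051 and 3772). Median centring gave 3474, with 1273 lower; it moved the median of all probe sets from -0.015 to 0.042. An adjusted p under 0.01 left 488 (258 and 230), and at least 2-fold 1924 (1028 and 896). With the replicate block 2473 were called (1298 and 1175). Deviations of same-numbered arrays correlated between -0.0623 and 0.0165 over all probe sets. Many of these were dim, so the correlations cannot exclude a batch that touched only some probe sets. What the replicate numbers stand for is not known. The 3' to 5' ratio covariate left 0 called, 0 higher and 0 lower, by limma (4885 with an unadjusted p under 0.05). Leaving out 1 array gave 999 to 2766 calls, 529 to 1375 higher and 470 to 1391 lower. Deposited scaling gave 4047, array weights 4457, 4 group means 3808 and no genotype covariate 4329, all within 1.5 times. The called probe sets that entered a fit (4044, 3394 and 2021 of 4304 under the 40th and 60th percentile filters and with 1 probe set per gene, all 4304 elsewhere) kept their sign in it, except 10 under the ratio covariate. They were chosen by the full fit and most had times without overlap, so kept signs were largely set by that choice. Of 203 named genes, that covariate ended 155 calls, the block 24, median centring 13, the deposited scaling 6 and leaving out 1 array 22 to 69. Low signal limited the calls: the median SE was 0.433 at or below the limit and 0.121 above a mean of 10.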

Other observations

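Probe sets of the same gene did not always move together, which bears on which transcript ends were measured. The 2081 called genes had 2233 further probe sets with 1 symbol, of which 1628 (72.9%) had the same sign. Among the 1687 with a mean above the limit 1342 (79.5%) did, 640 were called in the same direction and 28 in the opposite one. Emp1, a membrane protein of the PMP22 family, was called at -1.70 on its brightest probe set and at 1.86 on another. Inhbb, the activin beta B subunit, was called at -0.74 and at 2.29. Sfxn5 was called at -1.52 and 1.67, Tmem43 at 1.85 and -0.65, and Syt11 at 1.64 and -0.68. For the imprinted noncoding gene Meg3 the calls were -0.60 and 2.25. Cpsf6, a subunit of the pre-mRNA 3' end cleavage factor CFIm, was called at -0.64 on its brightest probe set and at 1.07, 0.79 and 0.97 on 3 others. Whether these pairs read different transcript ends or other sequences was not tested.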
